A study of Mus musculus with 18 samples.

Results

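Transcript levels of 32 genes that make, sense, move, store and export cholesterol were followed in mouse spleen across 18 RNA-seq libraries. The genes were taken by symbol from a table of 19326 entries, and all 32 were found. They comprise 19 enzymes from acetyl-CoA to cholesterol, 4 genes of the SREBP2 control system, 1 gene that controls lipoprotein uptake, 3 trafficking genes, 1 esterification gene, and 4 genes of efflux and its LXR receptors. All libraries came from whole spleens of ICR mice, an outbred stock, aged 10 weeks, in 6 groups of 3. The control group is labelled as control with no agent named. In the AOS group the one agent named is AOS, dosed at 10 mg/kg. The HS group was fed a high fat diet and given STZ (streptozotocin, a toxin of insulin-producing cells). The other groups shared that diet and STZ and had in addition AOS at 10 mg/kg (HS_AOS), AOS10mg/kg-FMT (HS_AOSFMT) or control-FMT (HS_conFMT). AOS and FMT are not spelled out in the labels; FMT commonly stands for faecal microbiota transplant, and its donors are not described there. The title of the series asks whether that FMT rescues the spleen from diet and STZ. The labels do not state that the 3 libraries of a group came from separate animals, so the p-values given here speak of the spread between libraries, which may be technical.

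Cholesterol is built from acetyl-CoA through mevalonate, isoprenoids, squalene and lanosterol. When sterols are scarce in the endoplasmic reticulum, SCAP escorts SREBP2 to the Golgi, where it is cleaved and goes on to switch on the synthesis genes; INSIG proteins hold the complex back when sterols are plentiful. When cholesterol is in excess, its oxidised derivatives activate the LXR receptors, which switch on the exporters Abca1 and Abcg1 and the uptake inhibitor Mylip, and SOAT1 stores the surplus as esters. In the spleen this balance matters in macrophages that clear red cells and in lymphocytes that divide.

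Values are read as FPKM, fragment counts scaled by transcript length and by the library's mapped total. That unit is inferred from the values, and on that reading they can be compared between genes. Each change is a difference of group means of log2(FPKM + 1), with its standard error (SE) from limma. The fit covered the 12969 genes that reached 1 FPKM in 3 or more libraries, and a gene is described as passing where its two-sided Benjamini-Hochberg adjusted p in limma lies under 0.05. All 32 cholesterol genes were above 1 FPKM in every library and were tested. Values of libraries 1, 2 and 3 are given in that order.

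Some libraries stood apart. The summed level of 12 pancreatic acinar genes was 20514 and 22823 FPKM in HS 1 and HS_AOS 1, against at most 3224 FPKM in the other 16 libraries, and 9 neutrophil genes summed to 15467 FPKM in control 1 against at most 4205 FPKM elsewhere. All 9 T cell markers were detected, with a summed level of 532 to 642 FPKM in HS_AOSFMT, above the 349 to 435 FPKM of HS, the 246 to 384 FPKM of control and the 362 to 523 FPKM of HS_conFMT. In HS_AOSFMT the haemoglobin genes held 12.9 to 17.6% of the summed FPKM, against 26.8 to 29.1% in HS, 21.5 to 34.3% in control and 14.7 to 35.5% in HS_conFMT. HS_conFMT 2 was nearest to HS_AOSFMT in both, with 14.7% haemoglobin and a T cell sum of 523 FPKM. In whole spleens, fewer cells of a type and less RNA per cell cannot be told apart. Summed FPKM per library ran from 666441 to 831448. The file holds no counts, so depth is unknown and no counting error is given.

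The 32 genes spanned a wide range of levels. The LXR beta gene Nr1h2 had the highest mean over the 18 libraries (60.04 FPKM) and Hsd17b7, a sterol reductase, the lowest (2.44 FPKM). Among the enzymes the farnesyl diphosphate synthase gene Fdps led with a mean of 29.1 FPKM, followed by the sterol isomerase gene Ebp at 22.3 FPKM. Srebf2, which encodes SREBP2, averaged 36.1 FPKM, far above its partners Scap (15.4 FPKM), Insig1 (13.3 FPKM) and Insig2 (10.0 FPKM). The members varied little across the study. In 27 of 32 genes the highest library was less than 2 times the lowest, and the median coefficient of variation within groups was 10.1%. Abca1 had the widest range, from 5.83 FPKM in control 1 to 16.7 FPKM in HS_AOSFMT 3, a ratio of 2.87. Mvk followed with 2.56 FPKM in HS_AOSFMT 2 and 6.83 FPKM in AOS 3, a ratio of 2.67. Idi1 was the least reproducible member, with a within-group coefficient of variation of 24.5%, and Acat2 the most reproducible, at 5.09%.

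**Figure D1:**
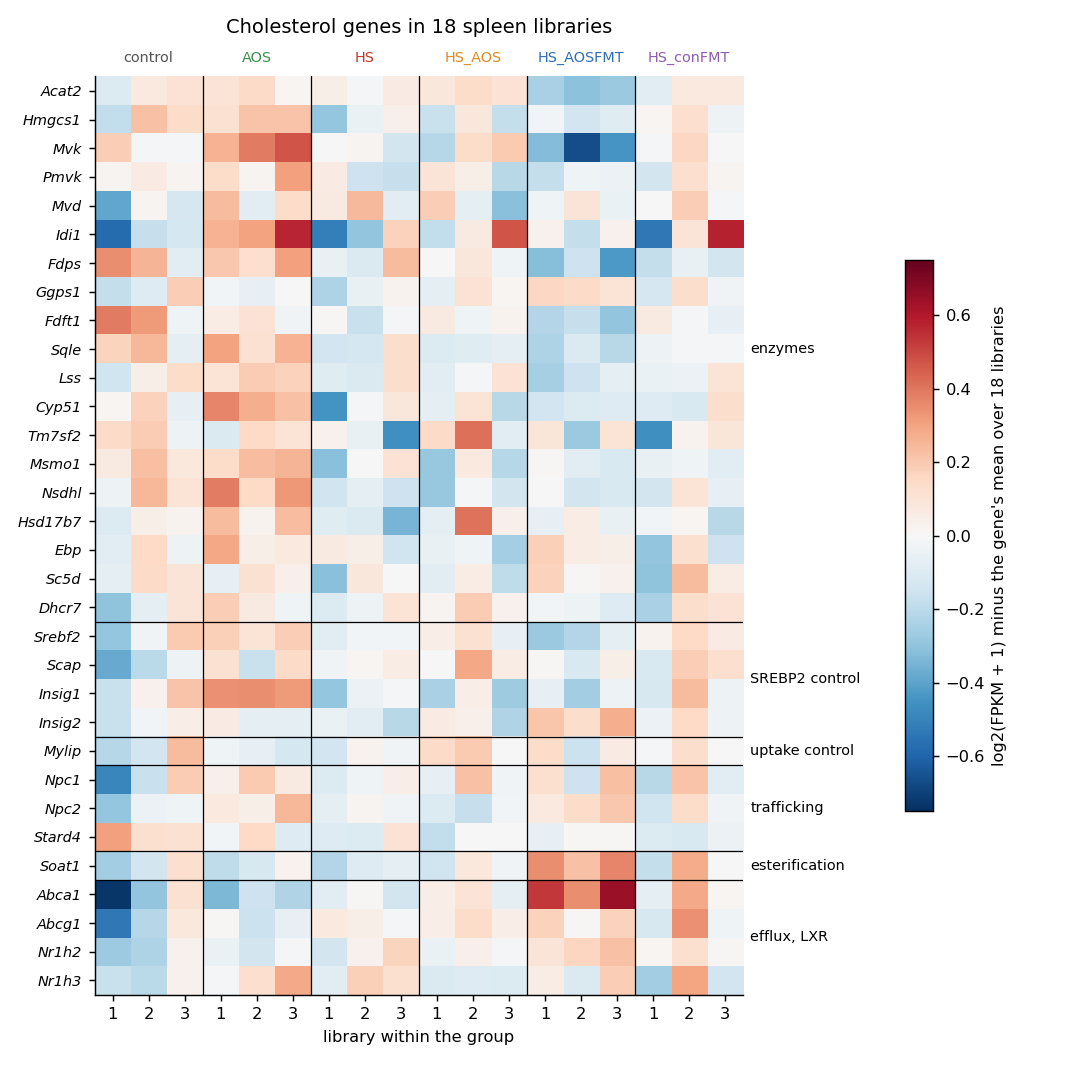
Heat map of 32 cholesterol genes (rows, grouped by role) in 18 libraries (columns, 3 per group); colour is log2(FPKM + 1) minus the gene's mean over the libraries. Acat2 and Mvk are blue and Soat1 and Abca1 red in all 3 HS_AOSFMT libraries, and control 1 is blue for Abca1, Abcg1, Npc1 and Idi1.

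The spleens with diet, STZ and AOS10mg/kg-FMT were those in which cholesterol genes changed. Against HS, the early synthesis genes Acat2 and Mvk fell, while the exporter gene Abca1, the storage gene Soat1 and the sensor partner Insig2 rose. Against control, Acat2 and Mvk fell together with Fdps, Fdft1 and Sqle, and Abca1, Soat1 and Nr1h2 rose. Against HS_conFMT, Acat2 and Mvk fell and none rose. In the F test for any difference among the 6 groups, 3 of 32 members passed (Mvk with an adjusted p of 0.0133, Acat2 with 0.0265 and Abca1 with 0.0418), beside 5.08% of all genes tested. In the other 4 comparisons 0 members passed.

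The number of members that passed is read against the number of all genes that did. Against HS, 5 of 32 members passed (15.6%), beside 9.23% of all genes, and against control 8 of 32 (25%), beside 12.0%. Against HS_conFMT the 2 members (6.25%) were close to the 5.85% of all genes. In HS_AOSFMT 6 of 32 members lay above HS without overlap and 4 below, beside 30.8% and 7.64% of all genes. Against control 5 lay above and 9 below, beside 23.3% and 8.30%. Against HS_conFMT 1 lay above and 6 below, beside 21.5% and 7.27%. The 3 comparisons share the HS_AOSFMT libraries. Of all genes that passed, 87.6% were higher in HS_AOSFMT than in HS, and 80.6% were higher than in control. After rescaling by median-of-ratios size factors these shares were 63.2% and 57.1%, and after rescaling without haemoglobin and acinar genes 59.1% and 55.7%. Among the members the passing genes split into 3 higher and 2 lower against HS as deposited, 2 and 3 after the first rescaling, and 0 and 3 after the second. Against control they split into 3 higher and 5 lower as deposited, 2 and 7 after the first rescaling, and 1 and 5 after the second. The median change of all genes in HS_AOSFMT vs HS was 0.10 as deposited and -0.0035 and -0.0065 after the rescalings. The rises given below for HS_AOSFMT vs HS are to be read beside this median of 0.10, with 67.4% of all genes above zero as deposited. Against HS_conFMT and control the medians of all genes were 0.062 and 0.090. Whether the rise of a given gene includes such a shift was not tested.

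**Figure D2:**
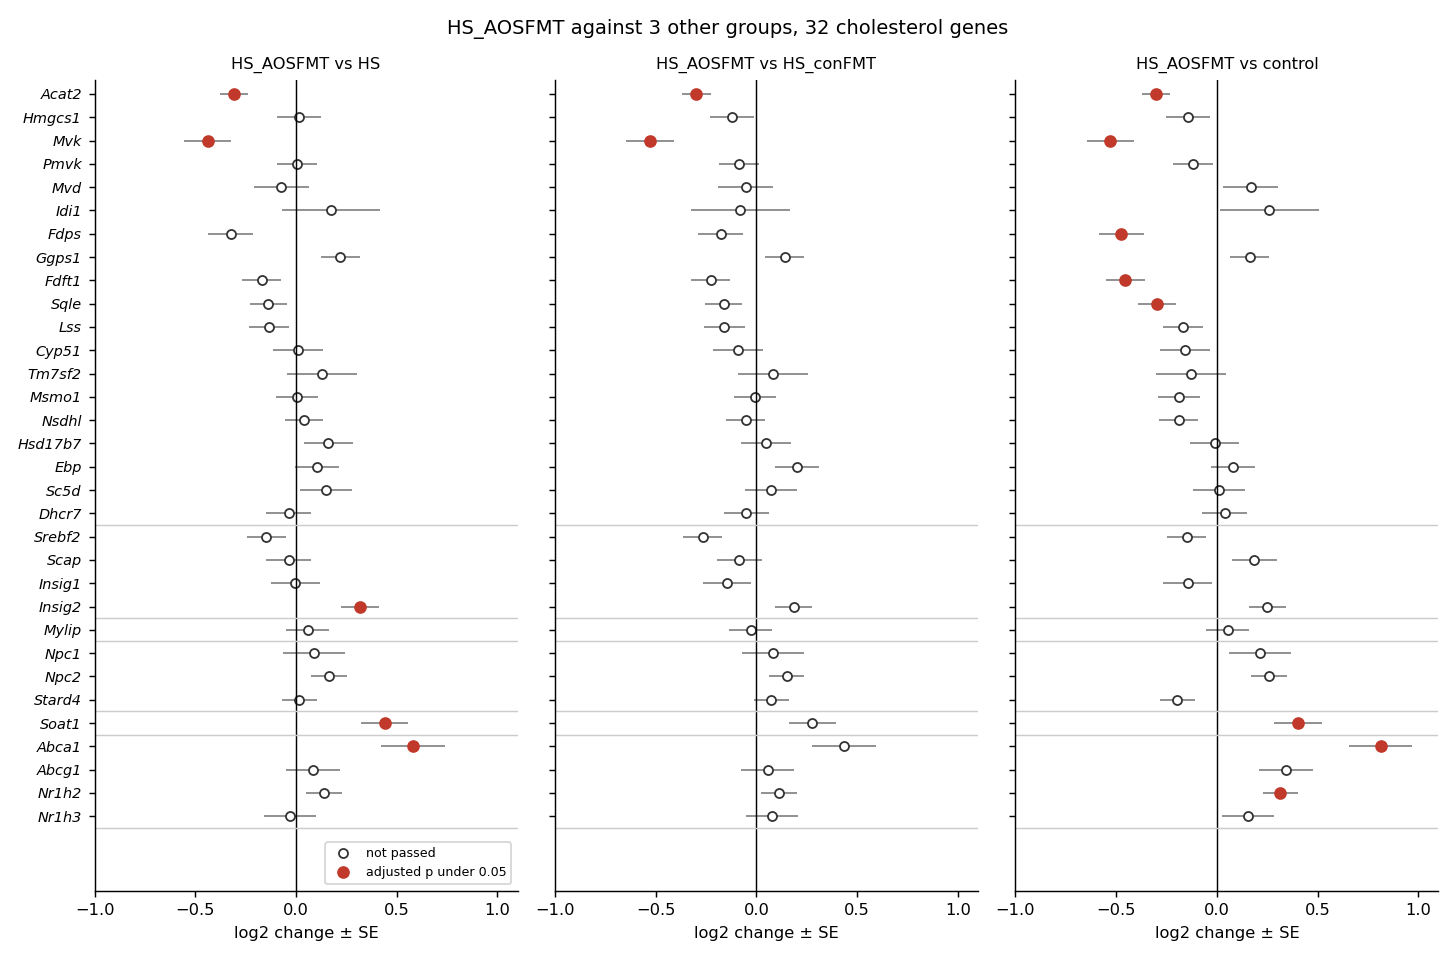
Log2 change (points) with its SE (bars) of each of 32 cholesterol genes in HS_AOSFMT against HS, HS_conFMT and control; filled red points have an adjusted p under 0.05. Acat2 and Mvk lie left of zero in all 3 panels, and Abca1 lies right of zero in all 3 but is filled in the HS and control panels alone.

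The calls were fragile to the loss of a library. Against HS, leaving out HS 2 kept Acat2 alone past the threshold, and leaving out any of the other 5 libraries left 0 members. Against control, Abca1 passed in 6 of 6 such fits, Mvk in 5, Acat2 and Fdft1 in 4, Fdps in 2, and Sqle, Soat1 and Nr1h2 in 1. Over these fits the count of members went from 2 without control 1 or HS_AOSFMT 3 to 12 without control 3, with 3, 4 and 5 without control 2, HS_AOSFMT 1 and HS_AOSFMT 2. Against HS_conFMT the count was 0 without HS_AOSFMT 2 or HS_AOSFMT 3, 3 without HS_conFMT 2 and 1 in the other fits. A fit on the 6 libraries of a comparison alone passed 5 members against HS, but 0 against HS_conFMT and 0 against control. Calls over all genes moved as well. With 1 library left out, 200 to 751 genes passed against HS (1197 with all libraries) and 198 to 1200 against HS_conFMT (759). Against control 479 genes passed without control 1, 445 without HS_AOSFMT 3 and 3376 without control 3 (1558 with all libraries). The fits on 6 libraries alone passed 1540 genes against HS, 191 against HS_conFMT and 203 against control.

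Of 6 listed enzymes from acetyl-CoA to the isoprenoid unit, Acat2 and Mvk fell in HS_AOSFMT, and Hmgcs1, Pmvk, Mvd and Idi1 did not pass. Acat2 (chr17:12942890-12960747, minus strand, mm10) encodes the cytosolic thiolase that joins acetyl-CoA units, and is not the esterifying enzyme that once shared the name. It stood at 11.83, 11.3 and 11.56 FPKM in HS_AOSFMT, against 14.66, 14.07 and 14.86 FPKM in HS, 13.39, 14.98 and 15 FPKM in HS_conFMT, and 13.15, 14.98 and 15.41 FPKM in control. AOS (15.35, 15.82 and 14.37 FPKM) and HS_AOS (15.15, 15.75 and 15.41 FPKM) were at the upper end. The 3 HS_AOSFMT libraries lay below all 15 others, and the other groups overlapped one another, except that HS_AOS lay above HS and HS_conFMT. Acat2 fell by 0.31 (SE 0.070) against HS, with an adjusted p in limma of 0.0189, by 0.30 against HS_conFMT (adjusted p in limma 0.0235) and by 0.30 against control (adjusted p in limma 0.0149). The mean was 11.6 ± 0.265 FPKM (SD, n = 3) in HS_AOSFMT and 14.5 ± 0.411 FPKM (SD, n = 3) in HS. Acat2 has a close paralog, Acat3, whose entry held 0.82 to 2.11 FPKM over all libraries and passed in no comparison; how reads of the pair were shared is not given in the sources used here.

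Mvk (chr5:114444269-114460591, plus strand) encodes mevalonate kinase, the first enzyme after mevalonate. It stood at 3.5, 2.56 and 3.16 FPKM in HS_AOSFMT. HS held 4.64, 4.73 and 4.14 FPKM, HS_conFMT 4.62, 5.3 and 4.66 FPKM, HS_AOS 3.86, 5.22 and 5.48 FPKM, and control 5.41, 4.59 and 4.58 FPKM. AOS held 5.77, 6.4 and 6.83 FPKM. The HS_AOSFMT libraries were thus the lowest of the 18 and the AOS libraries the highest, with no overlap of either with any other group. Mvk fell by 0.44 (SE 0.12) against HS, to 0.738 times on the FPKM + 1 scale (adjusted p in limma 0.0340), and without HS 1, HS_AOS 1 and control 1 by 0.42 (adjusted p in limma 0.0619). Against HS_conFMT it fell by 0.53 (SE 0.12, adjusted p in limma 0.0196), and against control by 0.53 (adjusted p in limma 0.0132). The higher level in AOS than in control, a log2 change of 0.32 (SE 0.12), did not pass (adjusted p in limma 0.340).

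**Figure D3:**
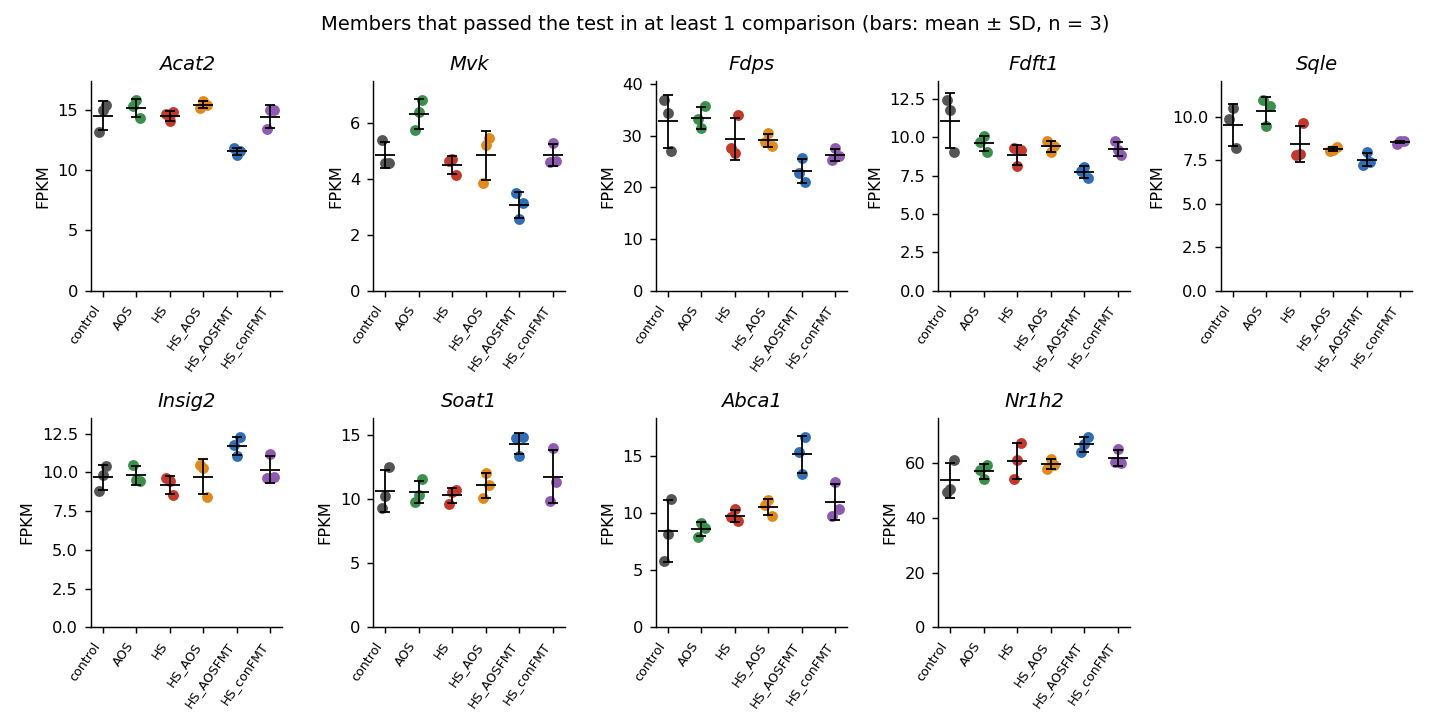
FPKM of the 9 cholesterol genes that passed in at least 1 comparison, by group; each point is a library and the bars give the mean ± SD (n = 3), on axes that start at 0. Acat2, Mvk and Fdft1 have their lowest libraries in HS_AOSFMT, and Abca1 reaches 13.4 to 16.7 FPKM there, above all other libraries.

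Another 3 synthesis genes fell against control and did not pass against HS or HS_conFMT. Fdps (chr3:89093588-89101959, minus strand) makes farnesyl diphosphate, the branch point between sterols and other isoprenoids. It stood at 22.82, 25.77 and 21.12 FPKM in HS_AOSFMT, 36.93, 34.5 and 27.04 FPKM in control, and 27.63, 26.63 and 34.04 FPKM in HS. HS_conFMT held 25.3, 27.66 and 26.07 FPKM, HS_AOS 28.75, 30.54 and 28.05 FPKM, and AOS 33.22, 31.54 and 35.8 FPKM. HS_AOSFMT did not overlap with control or HS but did with HS_conFMT. Fdps fell by 0.47 (SE 0.11) against control (adjusted p in limma 0.0166), and its change against HS was -0.32 (SE 0.11, adjusted p in limma 0.0791). The change against HS passed after rescaling without haemoglobin and acinar genes (-0.44, adjusted p in limma 0.0414). It did not pass after median-of-ratios rescaling (-0.44, adjusted p in limma 0.0503), nor without any 1 library (adjusted p in limma 0.0722 to 0.257). The loss of control 1 or of control 2, the highest libraries, ended the call against control, as did that of HS_AOSFMT 1 or HS_AOSFMT 3, with adjusted p values in limma of up to 0.0796.

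Fdft1 (chr14:63145150-63179578, minus strand) encodes squalene synthase, the first enzyme given over to sterols. It stood at 7.82, 8.09 and 7.35 FPKM in HS_AOSFMT, 12.43, 11.8 and 9.03 FPKM in control, and 9.31, 8.12 and 9.15 FPKM in HS. AOS held 9.67, 10.07 and 9.07 FPKM, HS_AOS 9.77, 9.02 and 9.44 FPKM, and HS_conFMT 9.75, 9.15 and 8.83 FPKM. The 3 HS_AOSFMT libraries were the lowest of the 18, with HS 2 close above them. Fdft1 fell by 0.45 (SE 0.097) against control (adjusted p in limma 0.0100). Its changes against HS (-0.17, adjusted p in limma 0.259) and HS_conFMT (-0.23, adjusted p in limma 0.177) did not pass. Exons of Fdft1 overlap those of the protease gene Ctsb on the opposite strand over 774 bases. Ctsb averaged 609 FPKM and passed in no comparison; whether counting used strand is not given in the sources used here.

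Sqle (chr15:59315077-59331192, plus strand) encodes squalene epoxidase, a rate-limiting step. It stood at 7.24, 7.97 and 7.38 FPKM in HS_AOSFMT, 9.86, 10.51 and 8.19 FPKM in control and 10.95, 9.48 and 10.59 FPKM in AOS. HS held 7.78, 7.85 and 9.61 FPKM, HS_AOS 8.03, 8.11 and 8.25 FPKM, and HS_conFMT 8.45, 8.59 and 8.58 FPKM. HS_AOSFMT lay below control, AOS, HS_AOS and HS_conFMT and overlapped with HS. Sqle fell by 0.30 (SE 0.093) against control, just past the threshold (adjusted p in limma 0.0493). Its change against HS was -0.14 (adjusted p in limma 0.342). The call was kept in 1 of 6 fits that left out a library, the one without control 3; in the others the adjusted p in limma went up to 0.157.

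The remaining 14 enzymes passed in no comparison. Ggps1, which leads farnesyl diphosphate away from sterols to geranylgeranylated proteins, was highest in HS_AOSFMT (21.59, 21.39 and 20.74 FPKM) and lowest in HS (16.27, 18.48 and 19.68 FPKM), without overlap of the pair. Of all genes, 30.8% lay above HS without overlap. The change of Ggps1 was 0.22 (SE 0.096, adjusted p in limma 0.148), opposite in sign to those of its neighbours Fdps and Fdft1. Lss, lanosterol synthase, had its lowest mean in HS_AOSFMT (2.20 ± 0.205 FPKM, SD, n = 3), as did Cyp51, lanosterol demethylase (7.71 ± 0.151 FPKM, SD, n = 3), but neither passed against any group. Ebp had a change of 0.20 (SE 0.11) against HS_conFMT (adjusted p in limma 0.285). As deposited, the late steps thus showed no change in HS_AOSFMT that the spread between libraries allowed to be called. HS_AOSFMT nonetheless lay below control without overlap for 8 of 19 enzymes, among them Pmvk, Cyp51 and Msmo1, beside 8.30% of all genes. Over the 19 enzymes the median change of HS_AOSFMT was 0.0064 against HS, -0.080 against HS_conFMT and -0.14 against control, beside 0.10, 0.062 and 0.090 for all genes. The first of these turned to -0.10 and -0.11 after the 2 rescalings, that against HS_conFMT to -0.16 in both, and that against control to -0.25 and -0.24.

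By group means, the enzymes were highest in AOS. AOS had the highest of the 6 means for 13 of 19 enzymes, beside 18% of all genes, and HS_AOSFMT the lowest for 7 of 19, beside 18.4%. After median-of-ratios rescaling these counts were 11 and 11, beside 15.7% and 29.5% of all genes, and after rescaling without haemoglobin and acinar genes 10 and 12, beside 12.8% and 30.0%. Without HS 1, HS_AOS 1 and control 1 they were 12 and 9, beside 17.5% and 17.4%. These counts were chosen after the values were seen. The summed level of the 19 enzymes was 257.8, 248.5 and 261.8 FPKM in AOS, against 224.7, 248.8 and 230.6 FPKM in control. It was 206.0, 217.6 and 230.1 FPKM in HS, 216.7, 238.6 and 216.8 FPKM in HS_AOS, 217.1, 212.1 and 208.1 FPKM in HS_AOSFMT, and 202.7, 238.0 and 227.7 FPKM in HS_conFMT. AOS overlapped with control by 1 library and with no HS group.

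**Figure D4:**
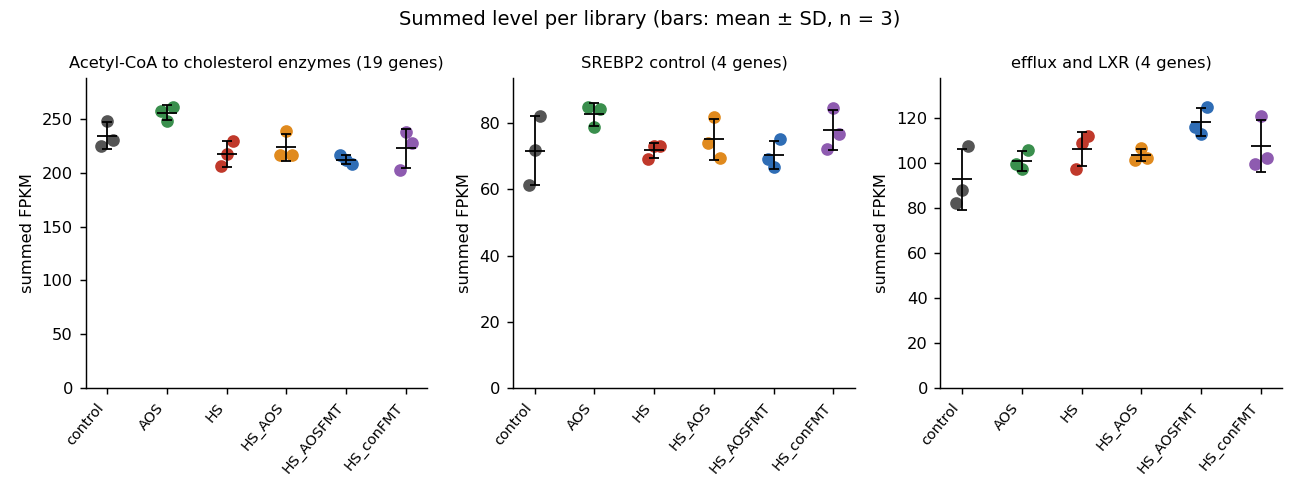
Summed FPKM per library of the 19 synthesis enzymes, the 4 SREBP2 control genes and the 4 efflux and LXR genes, by group; points are libraries, bars the mean ± SD (n = 3), and axes start at 0. AOS is highest for the enzymes (248.5 to 261.8 FPKM) and HS_AOSFMT for the efflux and LXR genes (113.1 to 125.1 FPKM), with control 2 and HS_conFMT 2 inside those ranges.

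Of the genes that control SREBP2, Insig2 alone passed. Insig2 (chr1:121304353-121332589, minus strand) encodes an endoplasmic reticulum protein that retains SCAP and SREBP2. It stood at 11.73, 11.07 and 12.29 FPKM in HS_AOSFMT against 9.62, 9.41 and 8.54 FPKM in HS. The other groups held 8.79, 9.85 and 10.4 FPKM (control), 10.5, 9.48 and 9.44 FPKM (AOS), 10.46, 10.28 and 8.42 FPKM (HS_AOS) and 9.65, 11.18 and 9.71 FPKM (HS_conFMT). HS_AOSFMT was above every group but HS_conFMT, whose library 2 reached into its range. That library held 14.7% haemoglobin and a T cell sum of 523 FPKM, and their part in its Insig2 level was not tested. Insig2 rose by 0.32 (SE 0.092) against HS (adjusted p in limma 0.0440). It did not pass after either rescaling (0.21 in both, with adjusted p in limma of 0.0970 and 0.160), nor without any 1 of the 6 libraries (adjusted p in limma 0.0663 to 0.147). Its changes against HS_conFMT (0.19, adjusted p in limma 0.247) and control (0.25, adjusted p in limma 0.0809) did not pass.

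Srebf2 had its lowest mean in HS_AOSFMT (29.5, 30.74 and 34.18 FPKM). HS_conFMT held 36.55, 39.93 and 37.55 FPKM, HS 33.92, 35.38 and 35.45 FPKM, and control 29.22, 35.28 and 41.35 FPKM. It lay below HS_conFMT without overlap, but control spanned the whole range. The change against HS_conFMT was -0.27 (SE 0.098), with an adjusted p in limma of 0.116. It passed in 1 of 7 other settings, after median-of-ratios rescaling (-0.35, adjusted p in limma 0.0146). After rescaling without haemoglobin and acinar genes it did not pass (-0.36, adjusted p in limma 0.0527). Nor did it pass without any 1 of the 6 libraries (adjusted p in limma 0.125 to 0.305). Insig1, itself a classical SREBP2 target, was highest in AOS (16.95, 17.03 and 16.68 FPKM) and lowest in HS_AOS (10.94, 13.65 and 10.74 FPKM). The 3 AOS libraries lay close together and above the 15 others. The change against control was 0.31 (SE 0.12, adjusted p in limma 0.362). Scap, the sterol sensor, had its highest mean in HS_AOS (16.8 ± 1.93 FPKM, SD, n = 3) and its lowest in control (13.2 ± 1.66 FPKM, SD, n = 3).

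Uptake and trafficking genes passed in no comparison. Mylip, an LXR target whose product marks lipoprotein receptors for degradation, lay between 27.16 and 37.44 FPKM, both in control libraries. Npc2, which hands cholesterol over inside lysosomes, was higher in HS_AOSFMT (62.36, 65.16 and 68.25 FPKM) and AOS (62.45, 61.03 and 70.66 FPKM) than in control (48.29, 57.36 and 57.86 FPKM), with no overlap. Its changes against control were 0.26 (SE 0.089, adjusted p in limma 0.0655) and 0.25 (SE 0.089, adjusted p in limma 0.337). Its lysosomal partner Npc1 ranged from 4.34 FPKM in control 1 to 7.74 FPKM in HS_AOSFMT 3, and control alone spanned 4.34 to 7.55 FPKM. Stard4, a carrier of cholesterol between membranes and an SREBP2 target, was highest in control (12.6, 10.94 and 10.89 FPKM) and lowest in HS_conFMT (9.21, 9.14 and 9.66 FPKM).

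Soat1, the storage gene, rose with AOS10mg/kg-FMT. Soat1 (chr1:156424525-156474331, minus strand) encodes the enzyme that esterifies cholesterol for lipid droplets, known for its role in foam cells. It stood at 14.73, 13.36 and 14.86 FPKM in HS_AOSFMT against 9.6, 10.53 and 10.73 FPKM in HS and 9.28, 10.22 and 12.47 FPKM in control. AOS held 9.81, 10.35 and 11.54 FPKM, HS_AOS 10.12, 12.05 and 11.09 FPKM, and HS_conFMT 9.89, 13.96 and 11.35 FPKM. All HS_AOSFMT libraries lay above all others but HS_conFMT 2. Soat1 rose by 0.44 (SE 0.12) against HS, 1.36 times on the FPKM + 1 scale (adjusted p in limma 0.0331), and by 0.40 (SE 0.12) against control (adjusted p in limma 0.0389). Against HS_conFMT its change was 0.28 (SE 0.12, adjusted p in limma 0.175), and it passed in 0 of 7 other settings. It passed in 1 of 6 fits that left out a library, the one without HS_conFMT 2 (0.40, adjusted p in limma 0.0432). In the others the adjusted p in limma was 0.208 to 0.544. HS_conFMT 2 is the library of that group with the least haemoglobin (14.7%) and the highest T cell sum (523 FPKM), and their part in its Soat1 level was not tested. After rescaling without haemoglobin and acinar genes the change against HS was 0.33 (adjusted p in limma 0.0967) and that against control 0.30 (adjusted p in limma 0.0885). Leaving out any 1 library ended the call against HS, and the call against control was kept in 1 of 6 such fits.

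Abca1 showed the largest rise of the 32 genes. Abca1 (chr4:53030787-53159895, minus strand) encodes the transporter that passes cholesterol to lipid-poor apolipoproteins, and is a textbook LXR target. It stood at 15.36, 13.44 and 16.72 FPKM in HS_AOSFMT, 9.68, 10.38 and 9.3 FPKM in HS, and 9.77, 12.79 and 10.42 FPKM in HS_conFMT. Control held 5.83, 8.22 and 11.26 FPKM, AOS 7.97, 9.17 and 8.69 FPKM, and HS_AOS 10.7, 11.14 and 9.81 FPKM. Each HS_AOSFMT library lay above the 15 others, and among the rest control had the lowest value and the widest spread. Abca1 rose by 0.81 (SE 0.16) against control, 1.76 times on the FPKM + 1 scale (adjusted p in limma 0.00637), and by 0.58 (SE 0.16) against HS (adjusted p in limma 0.0346). Against HS_conFMT the change was 0.43 (SE 0.16) and did not pass (adjusted p in limma 0.112). Without control 1 the rise against control was 0.60 (adjusted p in limma 0.0232), and leaving out any 1 of 6 libraries ended the call against HS (adjusted p in limma 0.0504 to 0.127). The call against HS was also lost after rescaling without haemoglobin and acinar genes (0.47, adjusted p in limma 0.0977) and without the filter on low values (adjusted p in limma 0.0516).

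Nr1h2 was the other efflux gene that passed. Nr1h2 (chr7:44549616-44553951, minus strand) encodes LXR beta, the receptor form found in most tissues. It stood at 64.05, 67.03 and 69.69 FPKM in HS_AOSFMT, 49.41, 50.78 and 61.16 FPKM in control and 54.23, 61.23 and 67.36 FPKM in HS. AOS held 57.71, 54.16 and 59.43 FPKM, HS_AOS 57.85, 61.45 and 59.5 FPKM, and HS_conFMT 60.31, 65.19 and 60.13 FPKM. HS_AOSFMT lay above control, AOS and HS_AOS but overlapped with HS and HS_conFMT. Nr1h2 rose by 0.32 (SE 0.088) against control (adjusted p in limma 0.0329), and by neither rescaling did it pass (0.20 and 0.21, adjusted p in limma 0.0908 and 0.145). Its paralog Nr1h3, LXR alpha, which macrophages favour, was highest in AOS (19.51, 21.56 and 24.2 FPKM), and its change in HS_AOSFMT vs HS was -0.030. Abcg1, which loads cholesterol onto mature HDL, had 16.21, 14.39 and 16.21 FPKM in HS_AOSFMT and 9.53, 12.16 and 15.15 FPKM in control. Its change against control, 0.34 (SE 0.13), did not pass (adjusted p in limma 0.0948), and the groups overlapped.

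Control had the lowest of the 6 means for 4 of 4 efflux and LXR genes, beside 22.8% of all genes, and HS_AOSFMT the highest for 3 of 4, beside 39.6%. The first count was 2 and 3 after the rescalings, beside 16.2% and 17.5% of all genes. It was 1 without HS 1, HS_AOS 1 and control 1, beside 13.3%. The second count was 2, 2 and 3 in these settings, beside 26.0%, 25.2% and 36.9%. These counts too were chosen after the values were seen. The median change of the 4 genes was 0.33 against control and 0.11 against HS, and the latter became -0.0017 and -0.0050 after the rescalings. Markers of red pulp macrophages, cells in which these genes are well known, overlapped between HS_AOSFMT (summed level 726 to 827 FPKM), HS (652 to 973 FPKM) and control (653 to 845 FPKM), with all 10 detected. Against HS 0 of 10 rose and 1 fell, against control 1 rose and 1 fell, and against HS_conFMT 1 rose and 2 fell. Of the T cell markers 5 of 9 rose against HS, 9 of 9 against control and 1 of 9 against HS_conFMT. Of the acinar markers 12 of 12 fell against HS, and 0 of 12 against control or HS_conFMT. The part of the T cell, acinar and red cell differences in the changes of the cholesterol genes was not tested.

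Promoter sequences were looked up for the genes on which these results turn. RefSeq windows of 300 bases (250 before to 50 after the start, GRCm38.p6) were found for 26 of 32 members, as 33 windows. They were searched on both strands for the sterol regulatory element TCACNCCAC, for the CCAAT box bound by NF-Y, an SREBP2 partner, and for an LXR direct repeat written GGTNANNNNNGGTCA. The reference is of another strain than the ICR mice, and a match is a description, not a bound site. Each search used a fixed pattern within these windows, so the lack of a match does not show the lack of a site. No windows were searched for Stard4, Fdps, Sqle, Abcg1, Fdft1 and Npc1. The sterol regulatory element was found in 1.24% of 32851 windows of the annotation and in 1 member, Hmgcs1. CCAAT was found in 37.4% of all windows and in 63.6% of member windows, among them Mvk with 5 matches. Hmgcs1 held CCAAT matches too, with first bases at -237, -176 and -45 from the start, which are left in small letters below. Presence of CCAAT thus does not separate Mvk from Hmgcs1. The LXR repeat was found in 0.207% of all windows and in 1 member, Abca1. The 250 bases before the start of these 3 genes are shown to set the gene that fell and the gene that rose beside a synthesis gene that did not pass, with the matches in capitals (the element in Hmgcs1, CCAAT or its reverse complement in Mvk, the repeat on the opposite strand in Abca1). Hmgcs1 lies on the plus strand (chr13:119690101-119690350), Mvk on the plus strand (chr5:114444019-114444268) and Abca1 on the minus strand (chr4:53159896-53160145).
Hmgcs1: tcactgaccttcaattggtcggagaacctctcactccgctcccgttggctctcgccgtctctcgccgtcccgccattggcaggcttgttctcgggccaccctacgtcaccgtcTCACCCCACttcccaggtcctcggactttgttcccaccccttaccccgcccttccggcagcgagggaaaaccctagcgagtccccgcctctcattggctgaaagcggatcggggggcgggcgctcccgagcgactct
Mvk: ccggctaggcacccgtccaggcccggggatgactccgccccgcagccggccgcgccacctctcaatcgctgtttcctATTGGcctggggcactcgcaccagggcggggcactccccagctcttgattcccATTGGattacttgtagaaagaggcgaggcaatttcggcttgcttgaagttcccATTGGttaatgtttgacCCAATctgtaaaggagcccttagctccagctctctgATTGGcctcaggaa
Abca1: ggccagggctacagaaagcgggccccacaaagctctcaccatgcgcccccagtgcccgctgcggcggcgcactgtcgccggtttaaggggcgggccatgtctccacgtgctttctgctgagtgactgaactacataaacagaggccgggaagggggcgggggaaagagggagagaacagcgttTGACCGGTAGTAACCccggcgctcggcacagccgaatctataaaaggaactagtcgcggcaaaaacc
Hmgcs1, which joins acetoacetyl-CoA to a further acetyl-CoA, did not follow Mvk: it stood at 15.44, 14.13 and 14.67 FPKM in HS_AOSFMT and 12.65, 15.14 and 16.16 FPKM in HS. Its change was 0.015 (SE 0.11).

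With diet and STZ alone, none of the 32 genes passed. In HS vs control 0 members passed in limma (3 at an unadjusted p under 0.05), beside 0.0154% of all genes. The median change of the 19 enzymes was -0.14, with 4 above zero, and that of the 4 efflux and LXR genes was 0.21, with 4 above zero. For all genes it was -0.015, with 45.5% above zero. The medians of the enzymes and of the efflux and LXR genes kept their sign after the rescalings and without HS 1, HS_AOS 1 and control 1. Nsdhl, a sterol dehydrogenase, stood at 10.69, 11.39 and 10.64 FPKM in HS and 11.65, 14.42 and 12.91 FPKM in control, and Stard4 at 9.27, 9.21 and 10.83 FPKM in HS. These 2 lay below control without overlap (beside 4.65% of all genes), and Scap (15.08, 15.53 and 15.97 FPKM in HS, 11.6, 13.18 and 14.92 FPKM in control) lay above it (beside 3.89%). The adjusted p in limma was 0.744 for Nsdhl and Stard4 and 0.810 for Scap. Fdft1 had the smallest p, with a change of -0.28 (SE 0.097, adjusted p in limma 0.632). The changes of Msmo1 (-0.19), Mvd (0.24), Abcg1 (0.26) and Nr1h2 (0.18) had adjusted p values in limma of 0.807 to 0.830.

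With AOS and neither diet nor STZ, no member passed, and 5 did not overlap with control. In AOS vs control 0 members passed in limma (5 at an unadjusted p under 0.05), beside 0.00771% of all genes. Mvk, Idi1, Cyp51, Insig1 and Npc2 lay above control in all 3 libraries, beside 11.6% of all genes, and 0 lay below, beside 4.79%. Idi1, which isomerises the isoprenoid unit, stood at 13.95, 14.36 and 17.54 FPKM in AOS and 7.35, 10.03 and 10.35 FPKM in control. Its change of 0.68 (SE 0.25), 1.60 times on the FPKM + 1 scale, was the largest of any member in this comparison and did not pass (adjusted p in limma 0.340). Idi1 also ranged from 7.58 to 17.56 FPKM within HS_conFMT, a wider spread than that difference. Cyp51 stood at 11.18, 10.4 and 9.98 FPKM in AOS and 8.54, 9.64 and 8.04 FPKM in control. On the lower side Fdft1 changed by -0.18 (adjusted p in limma 0.495), Stard4 by -0.17 (0.477), and Tm7sf2 and Mylip by less than 0.06. The median change of the enzymes was 0.12, with 16 of 19 above zero, beside 0.046 for all genes, of which 62.5% were above zero. After the rescalings the median of the enzymes was 0.067 and 0.065, with 14 of 19 above zero in each. Without HS 1, HS_AOS 1 and control 1 it was 0.080, also with 14 of 19. Markers of plasma cells summed to 1278 to 1600 FPKM in AOS, 593 to 1124 FPKM in control and 947 to 1669 FPKM in HS, with all 7 detected. In AOS vs control 0 of 7 passed, and their part in the AOS values was not tested.

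**Figure D5:**
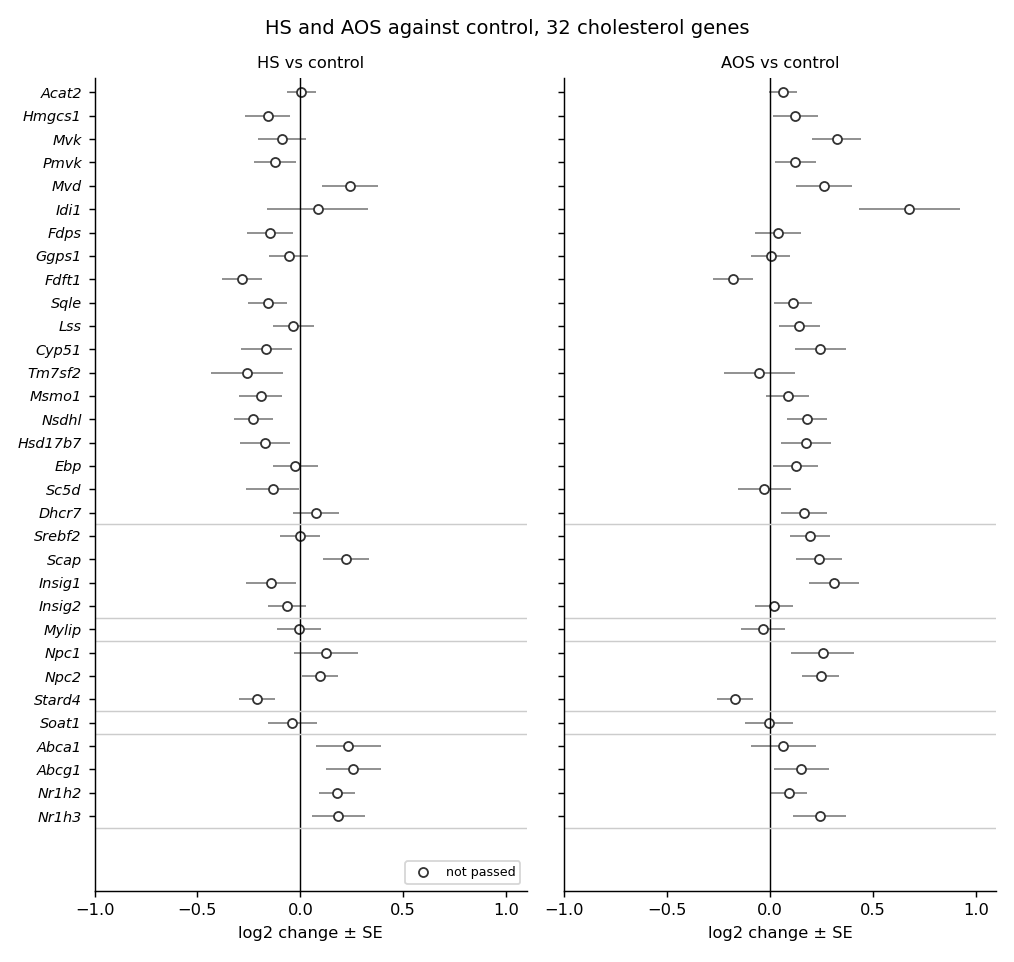
Log2 change (points) with its SE (bars) of each of 32 cholesterol genes in HS vs control and AOS vs control; no gene had an adjusted p under 0.05. In the AOS panel 16 of 19 enzymes lie right of zero, with Idi1 farthest at 0.68, beside 62.5% of all genes. In the HS panel 4 of 19 do, beside 45.5% of all genes.

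No member passed with AOS given beside diet and STZ, or with control-FMT. In HS_AOS vs HS 0 members passed in limma (1 at an unadjusted p under 0.05), beside 0% of all genes (674 at an unadjusted p under 0.05). Hsd17b7, at 2.24, 3.52 and 2.5 FPKM in HS_AOS and 2.21, 2.16 and 1.68 FPKM in HS, had the smallest p (change 0.30, SE 0.12, adjusted p in limma 0.874). Tm7sf2 (0.32), Idi1 (0.33) and Mylip (0.16) were higher in HS_AOS and Nr1h3 (-0.17), Mvd (-0.14), Ebp (-0.10) and Npc2 (-0.073) lower, with adjusted p values in limma of 0.982 to 0.999. In HS_conFMT vs HS 0 members passed in limma (0 at an unadjusted p under 0.05), beside 0.00771% of all genes. The members with the smallest p there were Insig2 (0.13), Soat1 (0.16), Hmgcs1 (0.14) and Srebf2 (0.12) above zero and Fdps (-0.15), Ebp (-0.097), Nr1h3 (-0.11) and Stard4 (-0.056) below, with adjusted p values in limma of 0.800 to 0.895. The means of Insig2 and Soat1 were above HS with either FMT, but HS had the lowest mean of all groups for both genes. The direct comparison of the FMT groups did not pass for either gene.

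Whether AOS acted differently with diet and STZ was tested as an interaction, the change of HS_AOS vs HS minus that of AOS vs control. In it 0 members passed in limma (2 at an unadjusted p under 0.05), beside 0.00771% of all genes. Npc2 had the smallest p, with a difference of -0.32 (SE 0.13, adjusted p in limma 0.739), followed by Nr1h3 at -0.42 (SE 0.18, adjusted p in limma 0.804). The differences of Mvd (-0.40) and Insig1 (-0.35) were also below zero. Those of Fdft1 (0.26), Tm7sf2 (0.37), Mylip (0.20) and Stard4 (0.14) were above zero, and the adjusted p in limma was 0.838 to 0.917 for these 6.

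Of 44 other genes of the pathway, which were listed by function, all were tested. Against HS, 4 of 44 rose in HS_AOSFMT and 0 fell (9.09%, beside 9.23% of all genes). Against HS_conFMT, 3 rose and 0 fell (6.82%, beside 5.85%), and against control 4 rose and 0 fell (9.09%, beside 12.0%). These shares were close to or below those of all genes. In the other comparisons between groups and the interaction 0 passed in limma, with 0 to 4 at an unadjusted p under 0.05. Of 8 genes of the isoprenoid branch, which makes dolichol and prenylates proteins, Nus1 and Fnta rose in all 3 comparisons and the other 6 passed in none. Nus1 stood at 19.3, 19.07 and 19.95 FPKM in HS_AOSFMT and at 12.91 to 16.46 FPKM in the 15 other libraries. Fnta stood at 36.27, 33.9 and 33.69 FPKM in HS_AOSFMT and at 23.76 to 31.36 FPKM elsewhere. Fntb, the partner subunit of Fnta, had its lowest mean in HS_AOSFMT (7.73, 9.4 and 9 FPKM, against 12.63, 9.71 and 10.44 FPKM in HS), with a change of -0.29 (SE 0.16, adjusted p in limma 0.251).

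Of 9 genes for oxysterols, the natural LXR ligands, efflux partners and RXR receptors, 1 rose against HS (Cyp7b1), 1 against control (Ch25h) and 0 against HS_conFMT. Ch25h, which makes 25-hydroxycholesterol, stood at 4.48, 4.87 and 4.7 FPKM in HS_AOSFMT and 1.25, 2.08 and 4.1 FPKM in control, a change of 0.79 (SE 0.23, adjusted p in limma 0.0393). Cyp7b1, which breaks oxysterols down, stood at 4.47, 2.86 and 2.92 FPKM in HS_AOSFMT and 1.78, 1.71 and 1.45 FPKM in HS, a change of 0.72 (SE 0.19, adjusted p in limma 0.0300). Both were low in level, with control 2 at 3 FPKM for Cyp7b1. Cyp27a1, which makes 27-hydroxycholesterol, had its lowest mean in HS_AOSFMT (12.19, 8.49 and 13.38 FPKM, against 13.07, 15.09 and 13.92 FPKM in HS), with a change of -0.30 (SE 0.18, adjusted p in limma 0.286). Scp2, a sterol carrier, rose by 0.33 against HS (adjusted p in limma 0.0424), and Stard3, which moves cholesterol out of endosomes, by 0.34 against control (adjusted p in limma 0.0448). Of the 9 genes for lipoprotein receptors and uptake 0 passed in the F test, with 4 at an unadjusted p under 0.05 in limma. Scarb1, the HDL receptor, had its lowest mean in HS_conFMT (22.65, 19.64 and 24.02 FPKM), against 27.03, 23.78 and 30.37 FPKM in HS, and its adjusted p in limma in the F test was 0.171.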

How the data were processed

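RNA from 18 mouse spleen samples, frozen in liquid nitrogen and extracted with Trizol and columns per the labels' protocols, was sequenced on an Illumina instrument. The submitters' processing notes name Bowtie 0.12.2 and mm10; how reads were counted, with which annotation and filters, is not given in the sources used here. As deposited by the authors, the data are 1 table of FPKM values with 2 decimals. The unit is inferred from the values: once weighted by transcript length, the library totals varied by 1.29%, against 6.14% before. No absolute depth is known; relative depth, from 26 low genes, was 0.947 to 1.06. No counts are held, so no counting interval is given.

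log2(FPKM + 1) of the 12969 genes that reached 1 FPKM in 3 libraries or more was fitted with limma 3.58.1 (R 4.3.3), group as sole factor over all 18 libraries, moderated with trend and robust settings (12 residual degrees of freedom). Each of 7 contrasts, 1 interaction and 1 F test was adjusted by Benjamini-Hochberg over all genes (threshold 0.05, two-sided). The fit was tested on simulated data. The members and gene lists were chosen with earlier results of these data known. Named in each comparison were the members that passed and up to 4 per direction with the smallest p. Same-numbered libraries of HS_AOS and HS deviated together (r of 0.487, 0.287 and 0.372 over genes); the pairing is a hint from the data, and with the numbers as a block 0 genes passed there. Alternatives were a pseudocount of 0.1, no filter, 2 rescalings, a replicate block, the contrast's groups alone, 3 libraries set aside, and each library left out. Symbols were matched to GENCODE M21 for coordinates (97.1%) and to RefSeq GRCm38.p6 for promoters; RefSeq windows of Stard4, Fdps, Sqle, Abcg1, Fdft1 and Npc1 were not used here. Some genes of the other pathway lists are counted but not reported here by name.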

Additional observations from a re-analysis of the deposited data

How the results depend on the processing

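Of 15 called changes, 75 values under the other settings stayed past the threshold and 30 did not, and with 1 library left out 30 did and 60 did not, with 0 reversed. Members called in the F test numbered 3, and 7 after median-of-ratios scaling and 0 to 10 with 1 library left out. Against HS, the 5 members became 3 without the filter, 3 after rescaling without haemoglobin and acinar genes, 2 with 3 libraries set aside and 0 to 1 with 1 left out. Against HS_conFMT, the 2 became 0 with the groups alone and 0 to 3 with 1 left out. Against control, the 8 became 3 with 3 libraries set aside, 0 with the groups alone and 2 to 12 with 1 left out. With the replicate block these counts were 3, 5, 2 and 8, and Sqle vs control missed the threshold (adjusted p in limma 0.0573) while Npc2 vs control passed (0.0400). In contrasts other than HS_AOS vs HS the libraries share only a number.

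Genes called against HS numbered 1197, and 379 after the second rescaling, 790 after the first, 403 with 3 libraries set aside and 200 to 751 with 1 left out. Against HS_conFMT they numbered 759, and 477 after the second rescaling, 191 with the groups alone and 198 to 1200 with 1 left out. Against control they numbered 1558, and 1026 after the second rescaling, 434 with 3 set aside, 203 with the groups alone and 445 to 3376 with 1 left out. In the F test they numbered 659, and 80 to 1519 with 1 left out.

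Counts of group means, added after seeing the data, moved for enzymes lowest in HS_AOSFMT (7, then 11 and 12 after the rescalings) and for efflux and LXR genes lowest in control (4, then 2 after the first rescaling and 1 with 3 set aside). The shares of all genes moved too, from 18.4% to 29.5% and 30.0% for the former and from 22.8% to 16.2% and 13.3% for the latter. Of 50 changes that were not called, 4 crossed zero with 1 library left out: Stard4 in HS_conFMT vs HS ran from -0.093 to 0.013 (above zero without HS 3) and Nr1h3 from -0.28 to 0.0028 (without HS_conFMT 1), and in AOS vs control Tm7sf2 ran from -0.12 to 0.027 (without AOS 1) and Mylip from -0.12 to 0.10 (without control 3). The cause of these shifts was not tested. Groups of 3 and unknown depth limit what could be called.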
